A study of Rattus norvegicus with 6 samples.

Results

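The platelet-derived growth factor (PDGF) ligands and their receptors were examined in crushed and intact sciatic nerves of the rat. The members are the ligand genes Pdgfa, Pdgfb, Pdgfc and Pdgfd and the receptor genes Pdgfra and Pdgfrb, chosen by name, each with 1 row among the 30957 genes of the deposited table. Of these 6 genes, 4 passed the filter on low counts (Pdgfa, Pdgfc, Pdgfra and Pdgfrb), and the remaining 2, Pdgfb and Pdgfd, had no count in any nerve.

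The samples were 3 crushed sciatic nerves, labelled injured tissue, and 3 intact nerves of the opposite side, labelled normal tissue, all from Sprague Dawley rats. The methods describe adult males and proximal stumps taken 4 days postinjury (dpi), whereas the labels give no age, sex or time. The replicates are given as biological, but nothing in the labels says whether nerves with the same number came from the same rat. In bulk tissue, fewer cells of a type and less RNA per cell cannot be told apart.

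PDGFs are secreted dimers that act on receptor tyrosine kinases of fibroblasts, pericytes, smooth muscle cells and glial precursors. The PDGF-A and PDGF-C chains bind mainly the receptor PDGFRα, the PDGF-D chain binds mainly PDGFRβ, and the PDGF-B chain binds both. PDGF-A and PDGF-B are cut to their mature form inside the cell, while PDGF-C and PDGF-D are secreted with an inhibitory CUB domain that extracellular proteases must remove. In peripheral nerve the receptors are known mainly from endoneurial and perineurial fibroblasts and from pericytes of the vessels, and PDGF is a mitogen for cultured Schwann cells.

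The counts on genes summed to between 24844371 and 27139360 per nerve, and 12393 genes were tested. Replicates of a group differed by more than sampling noise (from 3.27 to 11.8 times the chi-square that noise alone would give), with intact nerve 1 farther from the other intact nerves (11.4 and 11.8) than those were from each other (4.58). Several defining markers of nerve were at or near 0 in both groups, while others were read. The Schwann cell genes Sox10, S100b and Mbp had at most 3 counts in any nerve, the macrophage genes Ptprc, Adgre1 and Cd163 and the platelet genes Pf4 and Ppbp had 0, and the fibroblast genes Dcn, Lum and Col1a2 had 0. The proliferation gene Mki67 had between 37037 and 43837 counts. Of the same lists, the myelin gene Pmp22 had 821 to 968 counts, Erbb3 89 to 135, the collagen gene Col1a1 293 to 537 and the macrophage gene Cd68 29 to 52. The proliferation genes Top2a, Cdk1 and Ccnb1 had at least 25746, 4112 and 3536 counts in every nerve. Many defining markers of the labelled tissue were thus at or near 0, beside high proliferation genes, in both groups. Which cells the libraries hold was not tested, so the levels given here may not be those of adult nerve. The groups are called crushed and intact as they are labelled.

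Of the ligands, Pdgfc was read most and Pdgfa next, with no difference between crushed and intact nerves that passed the test, while Pdgfb and Pdgfd were not read. Of the receptors, Pdgfra was the more abundant, and Pdgfrb was lower in crushed nerves. Pdgfrb was the only member past an adjusted p of 0.05, with a fall of 0.77 on the log2 scale. Across all genes tested, 3.12% were called at that threshold in either direction and 1.65% as lower in crushed nerves, so that 1 of 4 members tested is too small a count to compare with this background.

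Pdgfc, which encodes the PDGF-C chain, lies on chromosome 2 from 179952227 to 180128283 (Rnor_6.0, the build in the submitters' processing notes, for this and the other coordinates of the table). Intact nerves 1, 2 and 3 gave 2712, 2725 and 2631 counts of Pdgfc, and crushed nerves 1, 2 and 3 gave 2812, 2645 and 2798. The groups overlapped, with the lowest and the highest normalized value both in the crushed group. After normalization (CPM, counts at a common library size after scaling by TMM factors) Pdgfc was at 105.6 ± 2.03 in intact and 104.0 ± 7.18 in crushed nerves (SD, n = 3 each). Its log2 fold change was -0.02 (95% interval -0.14 to 0.10, adjusted p = 0.885 in the edgeR quasi-likelihood fit, where adjustment by Benjamini and Hochberg ran over all genes tested). The interval leaves room for a difference between 9.23% lower and 6.94% higher in crushed nerves.

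Pdgfa, which encodes the PDGF-A chain, lies on chromosome 12 from 17734133 to 17755285. Intact nerves 1, 2 and 3 gave 813, 825 and 759 counts of Pdgfa, and crushed nerves 1, 2 and 3 gave 836, 763 and 734. On the normalized scale all crushed nerves (28.1 to 30.6 CPM) lay just under all intact nerves (30.6 to 32.1 CPM), with crushed nerve 1 and intact nerve 3 next to each other. This lack of overlap occurred in 23% of all genes tested, and the difference did not pass the test. The log2 fold change of Pdgfa was -0.10 (95% interval -0.23 to 0.04, adjusted p = 0.481 from the same edgeR test).

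Pdgfb, which encodes the PDGF-B chain, lies on chromosome 7 from 121214628 to 121232741, and Pdgfd, which encodes the PDGF-D chain, on chromosome 8 from 4440876 to 4669014. Both had 0 counts in each of the 6 nerves. At this depth a level of 3 counts, taken as the smallest that can be told from 0, corresponds to between 0.110 and 0.121 CPM per nerve. Pdgfb and Pdgfd were therefore not detectable above that level in either group, and no fold change exists for them. This floor reflects counting error alone, as the reads carry no molecular identifiers that the sources name.

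**Figure D1:**
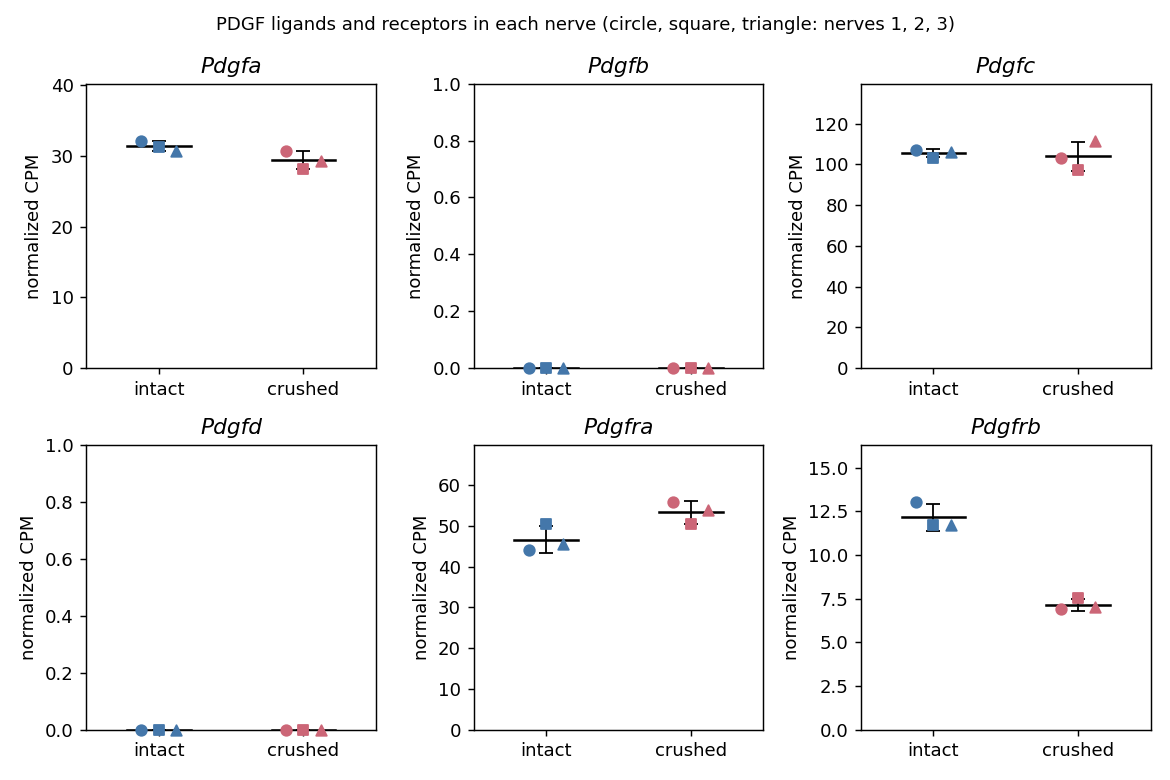
Normalized CPM (vertical axis, from 0) of each PDGF ligand and receptor gene in the 3 intact and 3 crushed nerves, where points are nerves, lines are means and bars are SD. Pdgfrb lies between 11.7 and 13.0 CPM in intact and between 6.88 and 7.55 CPM in crushed nerves, and Pdgfb and Pdgfd are at 0 throughout.

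To show the start regions of a ligand gene that was read, one that was not, and the more abundant receptor, the promoters of Pdgfc, Pdgfb and Pdgfra are printed from RefSeq (GRCr8 assembly, a build other than that of the counts). Each window holds 250 bases before and 50 after the start of the gene, 5′ to 3′ on the strand of the gene. Promoters of 5 of the 6 members were matched by symbol, all but that of Pdgfrb. Capitals mark matches on either strand to any of 5 motifs. The GC box was searched as GGGCGG and the CCAAT box by the letters of its name. The TATA box was searched as TATAAA. The AP-1 motif was searched as TGANTCA. The STAT motif was searched as TTCNNNGAA, and no matches overlapped in the printed windows. The Pdgfc window is chr2:168614918-168615217 on the plus strand, the Pdgfb window chr7:113438294-113438593 on the minus strand and the Pdgfra window chr14:33408467-33408766 on the minus strand.
Pdgfc: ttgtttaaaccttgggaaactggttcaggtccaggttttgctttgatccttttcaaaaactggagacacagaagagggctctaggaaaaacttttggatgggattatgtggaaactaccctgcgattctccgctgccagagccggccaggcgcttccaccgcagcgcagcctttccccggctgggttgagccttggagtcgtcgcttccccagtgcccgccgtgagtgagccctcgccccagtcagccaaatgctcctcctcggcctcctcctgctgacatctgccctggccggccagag
Pdgfb: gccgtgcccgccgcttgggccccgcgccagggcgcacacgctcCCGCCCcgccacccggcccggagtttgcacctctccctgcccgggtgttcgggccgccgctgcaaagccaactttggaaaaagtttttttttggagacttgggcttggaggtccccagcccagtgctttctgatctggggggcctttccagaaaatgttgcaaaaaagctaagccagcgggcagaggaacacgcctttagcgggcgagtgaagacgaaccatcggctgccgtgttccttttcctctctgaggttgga
Pdgfra: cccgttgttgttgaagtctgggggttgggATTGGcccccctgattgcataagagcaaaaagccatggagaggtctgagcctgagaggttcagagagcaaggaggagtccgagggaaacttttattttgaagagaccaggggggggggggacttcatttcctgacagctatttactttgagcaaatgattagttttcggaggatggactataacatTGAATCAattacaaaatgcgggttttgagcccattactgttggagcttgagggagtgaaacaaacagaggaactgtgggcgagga

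The Pdgfc window held none of these motifs. Its bases after the start open with atg, the letters of a start codon. The start used for Pdgfc may thus be that of translation, and its window may not hold the promoter. The Pdgfb window held 1 GC box from position -207 to -202 relative to the start, on the strand opposite to that of the gene. The GC box was found in 33.1% of all 33469 promoters of the table. The windows of Pdgfa and Pdgfd, not printed, also held 1 GC box each, and that of Pdgfa a STAT motif from 34 to 42, found in 8.87% of promoters. The Pdgfra window held 1 CCAAT box (-221 to -217, strand opposite to that of the gene, found in 37.5% of promoters). It also held 1 match to the AP-1 search letters, which leave the middle base open (TGAATCA, -35 to -29, letters found in 7.33%). Its GC content of 48.0% was under the median of 51.7% over all promoters, whereas the 4 ligand genes had between 58.0% and 62.0%. The letters are a description of the windows only. In these windows no motif parted the ligands that were read from those that were not. As the Pdgfc window may not hold the promoter, this cannot show whether promoter motifs part these ligands.

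Pdgfra, which encodes PDGFRα, the receptor of the PDGF-A and PDGF-C chains, lies on chromosome 14 from 35527927 to 35581031. Intact nerves 1, 2 and 3 gave 1114, 1329 and 1125 counts of Pdgfra, and crushed nerves 1, 2 and 3 gave 1525, 1367 and 1348. The groups touched on the normalized scale, with intact nerve 2 at 50.4 CPM and crushed nerve 2 at 50.3 CPM, and the other crushed nerves lay above all intact nerves. The means were 46.6 ± 3.33 CPM in intact and 53.3 ± 2.78 CPM in crushed nerves (SD, n = 3 each). Its log2 fold change was 0.19 (95% interval 0.05 to 0.34), with an adjusted p = 0.166 from the same edgeR test, so that Pdgfra did not pass. Before adjustment its p was 0.0132 in edgeR, rank 983 of the genes tested.

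Pdgfrb, which encodes PDGFRβ, the receptor of the PDGF-B and PDGF-D chains, lies on chromosome 18 from 56364620 to 56406381. Intact nerves 1, 2 and 3 gave 330, 310 and 290 counts of Pdgfrb, and crushed nerves 1, 2 and 3 gave 188, 205 and 176. All crushed nerves lay under all intact nerves, with a gap between 7.55 and 11.7 CPM. Groups without overlap, in either direction, occurred in 23% of all genes tested. The means were 12.2 ± 0.759 CPM in intact and 7.15 ± 0.351 CPM in crushed nerves (SD, n = 3 each), which is 41.2% lower in the fit. The log2 fold change was -0.77 (standard error 0.0938, 95% interval -0.97 to -0.56, adjusted p = 0.00106 from the same edgeR test), lower in 3 of 3 crushed nerves. An exact permutation test of the 6 nerves (two-sided) gave p = 0.1, and no smaller value can be had with 3 nerves a group.

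The fall of Pdgfrb was the 75th smallest p of the 12393 genes. It did not reach the limits of the study's methods, which ask for a log2 fold change beyond 1 in either direction with p under 0.001, here read as unadjusted. These limits were met by 0 of the 4 members tested and by 0.282% of all genes tested. Without intact nerve 1, the nerve farther from its group, the log2 fold change of Pdgfrb was -0.71 (adjusted p = 0.00265 from edgeR).

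A few genes from marker lists of cells known to carry PDGF receptors fell like Pdgfrb. However, 3 of the 5 fibroblast and 5 of the 8 pericyte and smooth muscle markers had at most 3 counts in any nerve. The numbers called are to be read beside the 1.65% of all genes tested that fell and the 3.12% called in either direction. Of the 5 fibroblast markers, 2 passed the filter and both fell, the collagen genes Col1a1 (log2 fold change -0.69, adjusted p = 0.000662 from edgeR) and Col3a1 (-1.76, adjusted p = 0.0268). Their summed level was between 20.4 and 21.2 CPM in intact and between 12.0 and 13.7 CPM in crushed nerves, with Col1a2, Dcn and Lum at 0. Of the 8 pericyte and smooth muscle markers, 3 passed the filter and 1 fell, the proteoglycan gene Cspg4 (log2 fold change -0.35, adjusted p = 0.00103 from edgeR). That list summed to between 183.1 and 198.7 CPM in intact and between 149.7 and 152.2 CPM in crushed nerves, with Rgs5 and Kcnj8 at 0 and Notch3 at no more than 1 count. Cspg4 made up nearly all of this sum, with means of 181.0 CPM in intact and 142.2 CPM in crushed nerves. The other genes of the list that were tested, Myh11 and Des, were not called. Of the 7 Schwann cell markers, 3 passed the filter and 1 fell, the neuregulin receptor gene Erbb3 (log2 fold change -0.59, adjusted p = 0.0222 from edgeR), and the list summed to between 40.7 and 42.9 CPM in intact and between 39.7 and 41.7 CPM in crushed nerves. Of the 6 endothelial markers 3 passed the filter and none was called, with sums between 4.62 and 5.49 CPM in intact and between 3.77 and 5.08 CPM in crushed nerves. The part of these cells in the fall of Pdgfrb was not tested.

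To compare levels between genes, the deposited FPKM values (counts scaled by gene length and by the total count) were used. Over all 6 nerves the order was Pdgfc at 36.0 ± 1.64 FPKM, Pdgfa at 12.1 ± 0.511, Pdgfra at 7.67 ± 0.749 and Pdgfrb at 1.19 ± 0.337 (SD, n = 6 nerves, both groups), with Pdgfb and Pdgfd listed at 0. No neighbours in this order overlapped between any nerves, apart from Pdgfb and Pdgfd, which were equal. The nearest neighbours were Pdgfa and Pdgfra, where the lowest nerve for Pdgfa had 11.3 FPKM and the highest for Pdgfra 8.63 FPKM. Among the genes tested, the mean FPKM of Pdgfc stood above 78.1% of genes, that of Pdgfa above 48.4%, that of Pdgfra above 36.3% and that of Pdgfrb above 11.6%.

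**Figure D2:**
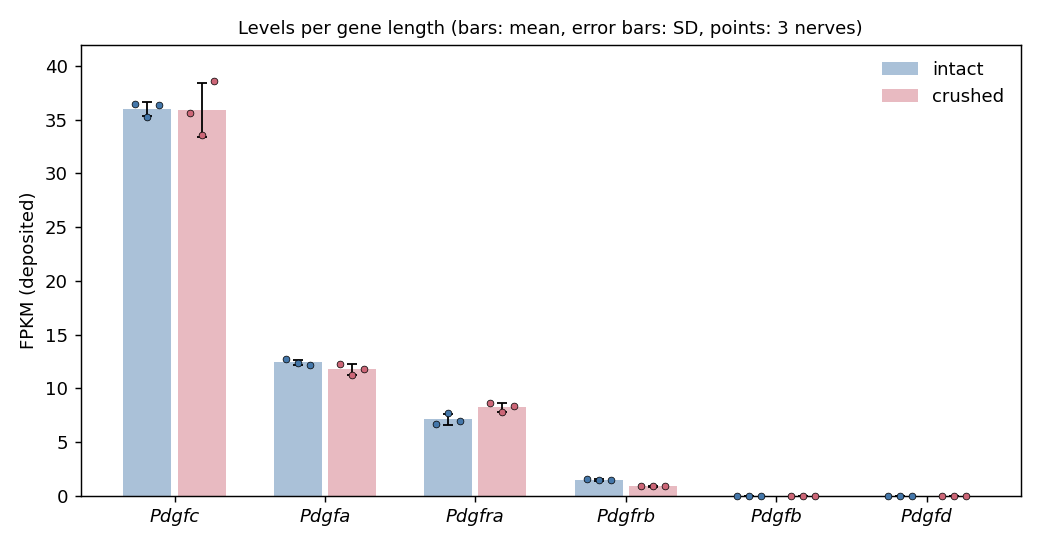
Deposited FPKM (vertical axis, from 0) of the 6 genes in the order of their level, with bars for the mean of 3 nerves of a group, error bars for the SD and points for nerves. Pdgfc stands near 36.0 FPKM in both groups, Pdgfa and Pdgfra follow, and Pdgfrb falls from 1.49 to 0.889 FPKM.

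Which ligand and receptor genes were present together was read from a level of at least 1 FPKM in each of the 6 nerves. By that rule 3 members were expressed, Pdgfa, Pdgfc and Pdgfra, the PDGFRα pairs PDGF-A with PDGFRα and PDGF-C with PDGFRα. Pdgfrb was at 1.49 ± 0.0883 FPKM in intact and 0.889 ± 0.0427 FPKM in crushed nerves (SD, n = 3 each), above the limit in every intact nerve and below it in every crushed nerve. With a limit of 0.5 FPKM Pdgfrb was counted too, so that both receptors but only PDGFRα-binding ligand genes were present. The ligand genes known to bind PDGFRβ best, Pdgfb and Pdgfd, were at 0 in all 6 nerves at either limit. RNA levels do not show whether the proteins were present.

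Within each nerve, Pdgfra exceeded Pdgfrb by 4.19, 5.32 and 4.82 times in intact nerves 1, 2 and 3 and by 10.1, 8.28 and 9.51 times in crushed nerves 1, 2 and 3, in FPKM. The ratio was higher in all crushed than in all intact nerves, with means of 4.78 ± 0.567 and 9.29 ± 0.917 (SD, n = 3 each) for intact and crushed. On the log2 scale the ratio of Pdgfrb to Pdgfra was lower by a mean of 0.96 in crushed nerves, a larger shift than that of Pdgfrb alone because Pdgfra lay higher in the crushed group. The sum of both receptors was 8.60 ± 0.459 FPKM in intact and 9.12 ± 0.395 FPKM in crushed nerves. The ligand ratio moved little. Pdgfc was 2.90 ± 0.0745 times Pdgfa in intact and 3.06 ± 0.202 times in crushed nerves, so that Pdgfc made up 74.4% ± 0.485 and 75.3% ± 1.20 of the summed ligand FPKM (SD, n = 3 each) and Pdgfa the rest. These ratios were not tested.

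**Figure D3:**
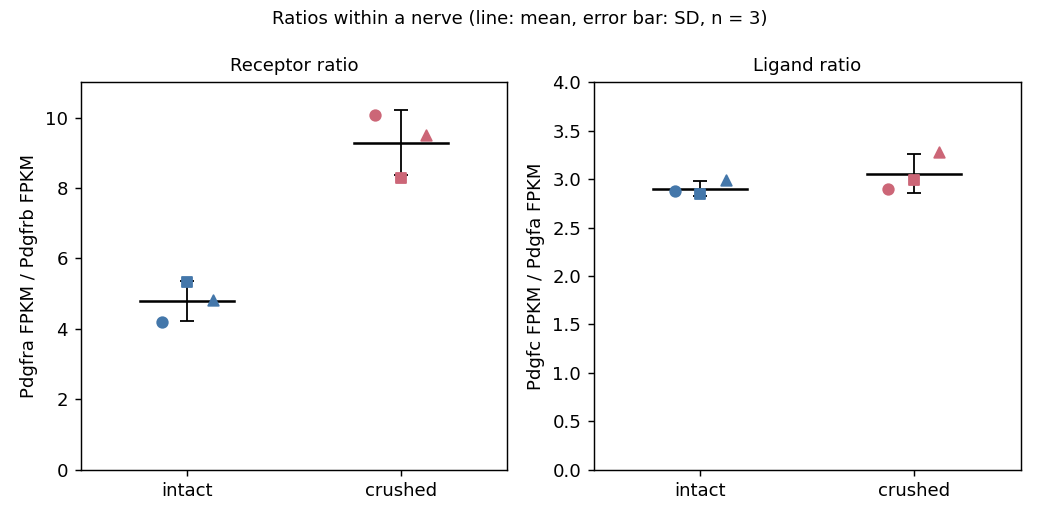
Ratios of deposited FPKM within a nerve (vertical axes, from 0, no unit), with points for nerves, lines for means and bars for SD. The ratio of Pdgfra to Pdgfrb runs from 4.19 to 5.32 in intact and from 8.28 to 10.1 in crushed nerves, while that of Pdgfc to Pdgfa runs from 2.85 to 2.99 in intact and from 2.90 to 3.28 in crushed nerves.

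The other genes of the pathway were taken from a list of 51 symbols, of which 49 were in the table, with 46 genes tested. Of these, 5 rose and 1 fell in crushed nerves at an adjusted p under 0.05, or 13.0%. Over all genes tested, 1.47% rose and 1.65% fell. Early response genes gave 4 of the genes that rose and the 1 that fell, and 1 adaptor or effector gave the other call. The list was written with earlier results of these data known, so its share cannot be weighed against that background. The number that rose was 4 or 5 over the 12 alternatives, as the call of Ier3 did not hold in all of them. The list's median log2 fold change was -0.0036, beside -0.0017 over all genes tested. Among the 5 tested genes that process the ligands none passed the test. Pcsk5 came nearest, at a log2 fold change of -0.29 (95% interval -0.46 to -0.12, edgeR adjusted p = 0.0744). Furin and Pcsk7, convertases able to cut PDGF-A and PDGF-B, were at 15.3 and 15.7 FPKM in intact nerves, and Plat and Plau, which encode the tissue-type and urokinase-type plasminogen activators that can activate PDGF-C and PDGF-D respectively, were at 0.979 and 5.55 FPKM. The log2 fold change of Plat was -0.18 (95% interval -0.60 to 0.23) and that of Plau -0.07 (95% interval -0.30 to 0.17), while Pcsk6 was at 0 counts in every nerve.

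Of the 21 adaptors and effectors tested, 1 rose, Stat3, which encodes a transcription factor that receptor tyrosine kinases and cytokine receptors activate. Stat3 rose by 0.37 ± 0.0395 (standard error) on the log2 scale with an adjusted p of 0.000421 in edgeR, from 47.4 ± 1.21 to 61.9 ± 1.14 FPKM (SD, n = 3 each). The others in this group, among them Grb2, Shc1, Plcg1, Ptpn11 and the PI3-kinase subunits, had log2 fold changes between -0.25 (Gab2) and 0.14 (Stat5a), and none passed. None of the 6 negative regulators tested passed the test either, with log2 fold changes between -0.11 and 0.12. These include Cbl, a ubiquitin ligase of the receptors, and the phosphatases Ptpn1, Ptpn2 and Ptprj. Of the co-receptors, Lrp1, which binds PDGFRβ, was at 70.4 ± 1.34 FPKM in intact and 74.9 ± 1.75 FPKM in crushed nerves (SD, n = 3 each; adjusted p = 0.369 from edgeR), and Nrp1, which binds several growth factors, stood at -0.70 on the log2 scale (edgeR adjusted p = 0.106).

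Of the 12 early response genes tested, which growth factors such as PDGF are known to induce, 4 rose and 1 fell. Ccl2 and Cxcl1, chemokine genes first known as PDGF-induced genes of fibroblasts, rose by 1.77 and 1.48 as log2 fold changes (edgeR adjusted p = 2.33e-05 and 3.19e-06), and they were the 2 genes of the list past the limits of the study's methods. Junb, an AP-1 subunit, rose by 0.75 (adjusted p = 3.73e-05), and Ier3 by 0.23 (adjusted p = 0.0442). The call of Ier3 held in 5 of 12 alternatives. It was lost in both limma fits on FPKM, with the replicate block (edgeR adjusted p = 0.0730), without intact nerve 3 (0.0666) and without crushed nerve 1 (0.178), 2 (0.0808) or 3 (0.168). Egr1, a zinc finger transcription factor, fell by 0.74 (adjusted p = 8.91e-05), from 27.2 ± 2.13 to 16.5 ± 0.489 FPKM (SD, n = 3 each). Fos had between 45 and 59 counts and a log2 fold change of -0.13 (95% interval -0.51 to 0.25), Myc of -0.09 (95% interval -0.25 to 0.08) and Jun of -0.21 (95% interval -0.35 to -0.06, adjusted p = 0.150). The early response genes thus moved in both directions. These genes also respond to other signals, and the call of Ccl2 was known when the list was written.

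**Figure D4:**
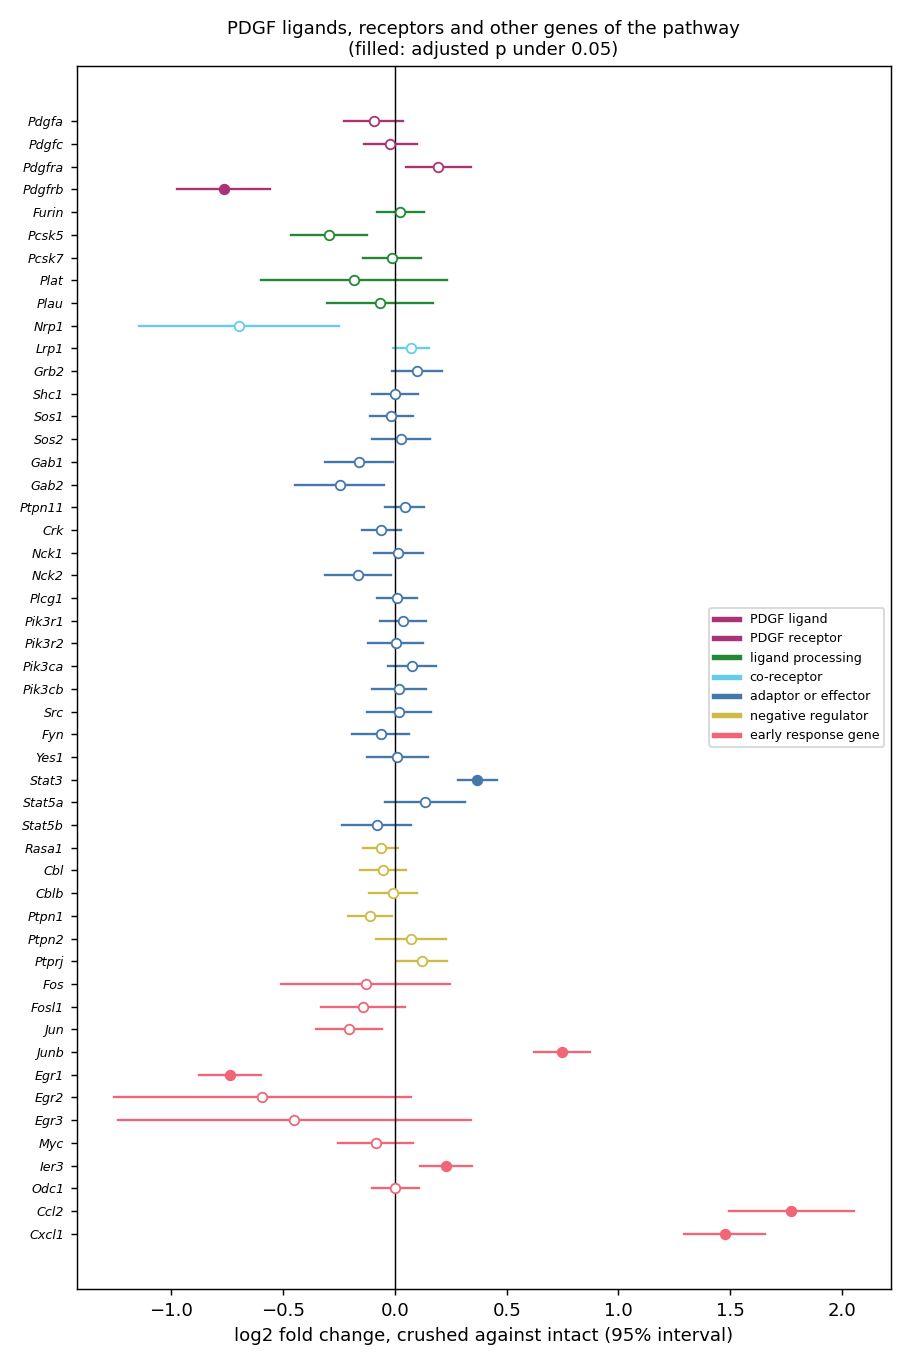
Log2 fold change of crushed against intact nerves (horizontal axis) with its 95% interval from edgeR for the 4 members and the 46 other pathway genes tested, coloured by role, with filled points for an adjusted p under 0.05. Pdgfrb at -0.77 and Egr1 at -0.74 lie on the lower side, Ccl2 at 1.77 and Cxcl1 at 1.48 on the higher side, and 40 of the 46 pathway genes are open points.

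The receptors most related to the PDGF receptors, the class of Csf1r, Kit and Flt3, were set beside them. Of their ligand genes, Il34 had 0 counts in every nerve. Csf1 and Kitlg were read at high levels, 83.3 ± 3.80 and 59.2 ± 2.59 FPKM in intact nerves (SD, n = 3 each), above Pdgfc. Their receptors had few counts, with Kit at 0, Flt3 at no more than 9 and Csf1r at 18 to 29 counts in any nerve. Only Csf1r among them passed the filter, at a log2 fold change of 0.06 (edgeR adjusted p = 0.940). Csf1, the macrophage growth factor, rose by 0.39 as a log2 fold change (edgeR adjusted p = 0.000537), while Kitlg stood at 0.02 (adjusted p = 0.846). Pdgfra and Pdgfrb, with 1114 to 1525 and 176 to 330 counts, were thus the receptors of this class with counts above that range.

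The genes whose normalized level followed each member most closely over the 6 nerves were ranked by Pearson's r among 11469 genes with a mean of at least 1 CPM. With 6 points, the nearest of so many genes have a high r in any case, and the nerves share library depth and normalization. For Pdgfrb they were AABR07007000.1 (r = 0.999), the unnamed gene ENSRNOG00000043128 (r = 0.999) and the transcription factor gene Klf9 (r = 0.997), and 3.42% of the genes had r above 0.9. Klf9 fell by 0.41 as a log2 fold change (edgeR adjusted p = 0.0142). For Pdgfra they were Steap1 (r = 0.997), Eps8 (r = 0.993) and Kctd21 (r = 0.990), with 1.54% of genes above 0.9. For Pdgfa they were the stromelysin gene Mmp3 (r = 0.998), Sh3glb2 (r = 0.988) and Leng1 (r = 0.985), and for Pdgfc Mmachc (r = 0.981), B4galt1 (r = 0.978) and Srsf10 (r = 0.964). Among the members themselves r over 6 nerves was -0.87 between Pdgfra and Pdgfrb, 0.74 between Pdgfa and Pdgfrb, and 0.38 between Pdgfa and Pdgfc, with the group difference included. For the ligand and receptor genes expressed together it was -0.46 between Pdgfa and Pdgfra and -0.10 between Pdgfc and Pdgfra, and between Pdgfc and Pdgfrb it was 0.15.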

How the data were processed

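RNA-seq of 3 crushed and 3 intact sciatic nerves was analysed from 1 deposited table. The authors deposited read counts per Ensembl gene and nerve without normalization, and FPKM values that divide those counts by the total count and by 1 fixed length per gene (2508 bases for Pdgfa, 2911 for Pdgfc, 6514 for Pdgfra and 8090 for Pdgfrb, as implied by the table). The processing notes of the submitters name HISAT2, StringTie 1.3.0 and the Rnor_6.0 build, with no role. The counting program, strandedness and annotation release are not given in the sources used here, so reads of overlapping antisense genes could be counted on a member. The methods describe rRNA removal and RNase R, an enzyme that digests linear RNA. The labels instead give extraction on columns without RNase R, and gene counts would depend on which was used. All 12 value columns were matched by sample title.

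In R 4.3.3, the counts entered a quasi-likelihood fit in edgeR 4.0.16 (limma 3.58.1 for the FPKM fits) with TMM factors and the expression filter of edgeR over all genes, crushed against intact, without a replicate block, and p-values were adjusted with the Benjamini-Hochberg method over the 12393 genes tested. Standard errors come from the test statistic. The calculation was tested on simulated data. The main settings were varied by adding the replicate block, by DESeq2 1.42.0, by RLE factors, no filter, limma with a trend on log2(FPKM + 0.1) and log2(FPKM + 1), and each nerve left out. Named are the members, pathway and related genes with an adjusted p under 0.05, the 3 genes with the highest r with each member and marker genes. Other genes were named for their role or interval after their values were seen. The members and lists were chosen with earlier results of these data known, and the promoter motifs after the values were seen. The list symbols Crkl, Ier2, Flt3lg, Pecam1 and Myh4 were not analysed here, and 1 of 2 rows named Grb2 did not pass the filter. Further marker genes are not reported here and were left out of their list.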

Additional observations from a re-analysis of the deposited data

How the results depend on the processing

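The fall of Pdgfrb kept its direction and an adjusted p under 0.05 in all 12 alternatives (2.15e-06 to 0.0265), with log2 fold changes from -0.81 to -0.71 when single nerves were left out in turn. On log2(FPKM + 1), whose pseudocount is close to the level of Pdgfrb, it was -0.40. Pdgfa and Pdgfra kept their direction and did not pass in any alternative (lowest adjusted p 0.444 and 0.0910). Pdgfc changed sign without crushed nerve 2 (log2 fold change 0.0239, adjusted p = 0.913), the nerve with its lowest value, and lay from -0.0749 to 0.0239 when single nerves were left out. Every alternative called 1 member, Pdgfrb, and 0 past the limits of the study. Pdgfb and Pdgfd, with no counts, gave no value in any alternative.

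With the replicate block (paired analysis) the log2 fold change of Pdgfrb was -0.77 (adjusted p = 0.00622 from edgeR). The main fit used no pairs because the study's methods state no model, and no label ties same-numbered nerves to 1 rat. Same-numbered nerves did not deviate together (correlations between -0.0148 and 0.0756 across genes). Among the pathway and related genes the block ended 1 call, that of Ier3 (edgeR adjusted p = 0.0730). Ier3 passed in 5 of 12 alternatives. The pathway genes called as lower numbered from 1 to 2 when single nerves were left out, the second being Nrp1 without crushed nerve 1, and the cause was not tested. The number of expressed members was 4 at 0.5 FPKM, 4 by the edgeR filter and 3 at 5 FPKM. With few counts, as for Plat, Fos or Nrp1, only large differences were detectable at this depth.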
